A study of Mus musculus with 8 samples.

Results

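The genes described here are the clustered protocadherins, taken as every gene symbol in the count files that has the form Pcdha, Pcdhac, Pcdhb, Pcdhga, Pcdhgb or Pcdhgc followed by a number. The rule used names only and found 58 of 23393 symbols, of which 14 belong to the alpha, 22 to the beta and 22 to the gamma cluster. RNA came from whole-tissue lysate of the prefrontal cortex of C57BL6/J mice that were 6 to 8 weeks old and had been injected with adeno-associated virus of serotype 9 (AAV9). The shAdnp group (2 libraries) is named Adnp by its titles and was set against 2 libraries from mice injected with GFP virus (the Adnp set). The shPogz group (2 libraries) is named Pogz by its titles and was set against another 2 GFP libraries (the Pogz set). All 4 groups therefore received a virus, no hairpin without a target is named among the controls, and the promoter that drives the hairpin is not given in the sources used here. The series title asks whether ADNP and POGZ, risk genes of neurodevelopmental disorders, act by a convergent mechanism. The labels call the libraries of a group biological duplicates.

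Protocadherins are cadherin-type adhesion proteins of the neuronal surface. The alpha and gamma clusters each hold a row of large variable exons, every one with its own promoter, which are spliced to a short set of constant exons, while each beta gene is a single exon. Promoter choice in single neurons depends on CTCF and cohesin and on DNA methylation, and the resulting combination of isoforms gives a neuron a surface identity used in self-avoidance of its branches. The C-type genes at the ends of the alpha and gamma clusters (Pcdhac1, Pcdhac2, Pcdhgc3, Pcdhgc4 and Pcdhgc5) are expressed more constitutively than the other isoforms. ADNP and POGZ are chromatin proteins that bind HP1, and the HP1-linked mark H3K9me3, laid down by SETDB1, is known to silence genes of these clusters.

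The labels of the knockdown were checked on the targeted genes first. Adnp stood at 87.2 and 118 CPM (counts scaled to library size) in shAdnp, against 137 and 111 CPM in its GFP controls, which is -0.27 on the log2 scale (SE 0.19, edgeR adjusted p = 0.768), and the groups overlapped. Pogz stood at 49.0 and 37.3 CPM in shPogz, against 54.4 and 53.1 CPM in its GFP controls, with no overlap. This is -0.32 on the log2 scale (SE 0.16, edgeR adjusted p = 0.667). Of all genes, 21.3% had both shPogz libraries below both controls. In the GFP controls of the Adnp set Pogz stood at 55.7 and 44.9 CPM. The lower of these values lay within the span of the shPogz libraries. Neither Adnp nor Pogz passed the test. In the treatment field, both knockdown groups carry the name of an ASH1L hairpin in place of these genes, and Ash1l had log2 fold changes of -0.10 (SE 0.14) in shAdnp and 0.11 (SE 0.14) in shPogz. Library totals ran between 27501722 and 69002749 counts, and 1 library stood apart in ribosomal precursor RNA (Rn45s, at 7.62% in shAdnp replicate 1, the others holding 0.134% to 0.740%). The protocadherins together took 0.0609% to 0.0762% of a library, or 19587 to 52156 counts.

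All 3 clusters lie in a row on chromosome 18 (build GRCm38, the same assembly as mm10). The alpha cluster spans positions 36930285 to 37188897, the beta cluster 37264998 to 37521419 and the gamma cluster 37661775 to 37841873. Annotated alpha members share 2860 exon bases and gamma members 2116 to 2119 with their neighbours, and a member's own exon has 2346 to 3028 bases in alpha and 2499 to 2961 bases in gamma. Levels of different genes are therefore compared as CPM per kilobase. For alpha and gamma genes the length is the exon that a member shares with no other member, and for the single-exon beta genes it is the RefSeq gene span (GENCODE gives several beta genes a longer exon). Plain CPM is used for 1 gene across libraries. Of all stretches of 50 bases in these own exons, a median of 14.7% per alpha gene, 4.26% per beta gene and 0.730% per gamma gene also occur in another member. The highest share was 23.4% in alpha (Pcdha7) and 17.9% in gamma (Pcdhgb2), so reads of these genes can be assigned less surely. Annotated antisense genes overlap the own exons of 4 alpha, 1 beta and 8 gamma members. None of these antisense genes is listed in the count files under its GENCODE symbol. The strand setting of the counting is not given in the sources used here.

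One alpha gene, Pcdha4, was nearly empty. It was listed at 0.0695 and 0.0720 CPM in shAdnp, 0.0491 and 0.0478 CPM in the GFP controls of the Adnp set, 0.0234 and 0.0262 CPM in shPogz, and 0 and 0.0569 CPM in the GFP controls of the Pogz set. In GENCODE a read-through gene (Gm42416) that joins the Pcdha4 exon to the gamma constant exons covers 2410 of the 2503 bases of its own exon. RefSeq gives the symbol Pcdha4-g as a synonym of a read-through gene that starts at the same exon, and Pcdha4-g was listed at 0 in all 8 libraries. Pcdha4 was the only member under the low-count filter, which left 57 of 58 members among 17415 tested genes. Since it carries the same shared exons as its neighbours, its near absence shows that reads of the constant alpha exons were not credited to every member.

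Per kilobase, a few C-type genes led the family. Pcdhgc5, an isoform that appears late in postnatal cortex, averaged 42.2 CPM per kb over the 8 libraries. Pcdhac2 followed with 17.3 and Pcdhgc3 with 17.0 CPM per kb, and their values overlapped. Next came Pcdhga11 (7.90), Pcdhb17 (7.68), Pcdhga3 (6.06), Pcdhga12 (5.42), Pcdhga6 (5.19), Pcdhgc4 (5.09) and Pcdha12 (4.93 CPM per kb), whose library values overlapped with those of their neighbours in this order. Over its longer GENCODE exon of 4660 bases in place of the RefSeq span of 3270 bases, Pcdhb17 averaged 5.39 CPM per kb. At the other end stood Pcdhb1 with 0.0610, Pcdha1 with 0.556 and Pcdhb6 with 0.735 CPM per kb, apart from Pcdha4 with 0.0172. The fifth C-type gene, Pcdhac1, averaged 2.45 CPM per kb, below the other C-type genes. The transcribed pseudogene Pcdhgb8 averaged 1.503 CPM per kb.

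**Figure D1:**
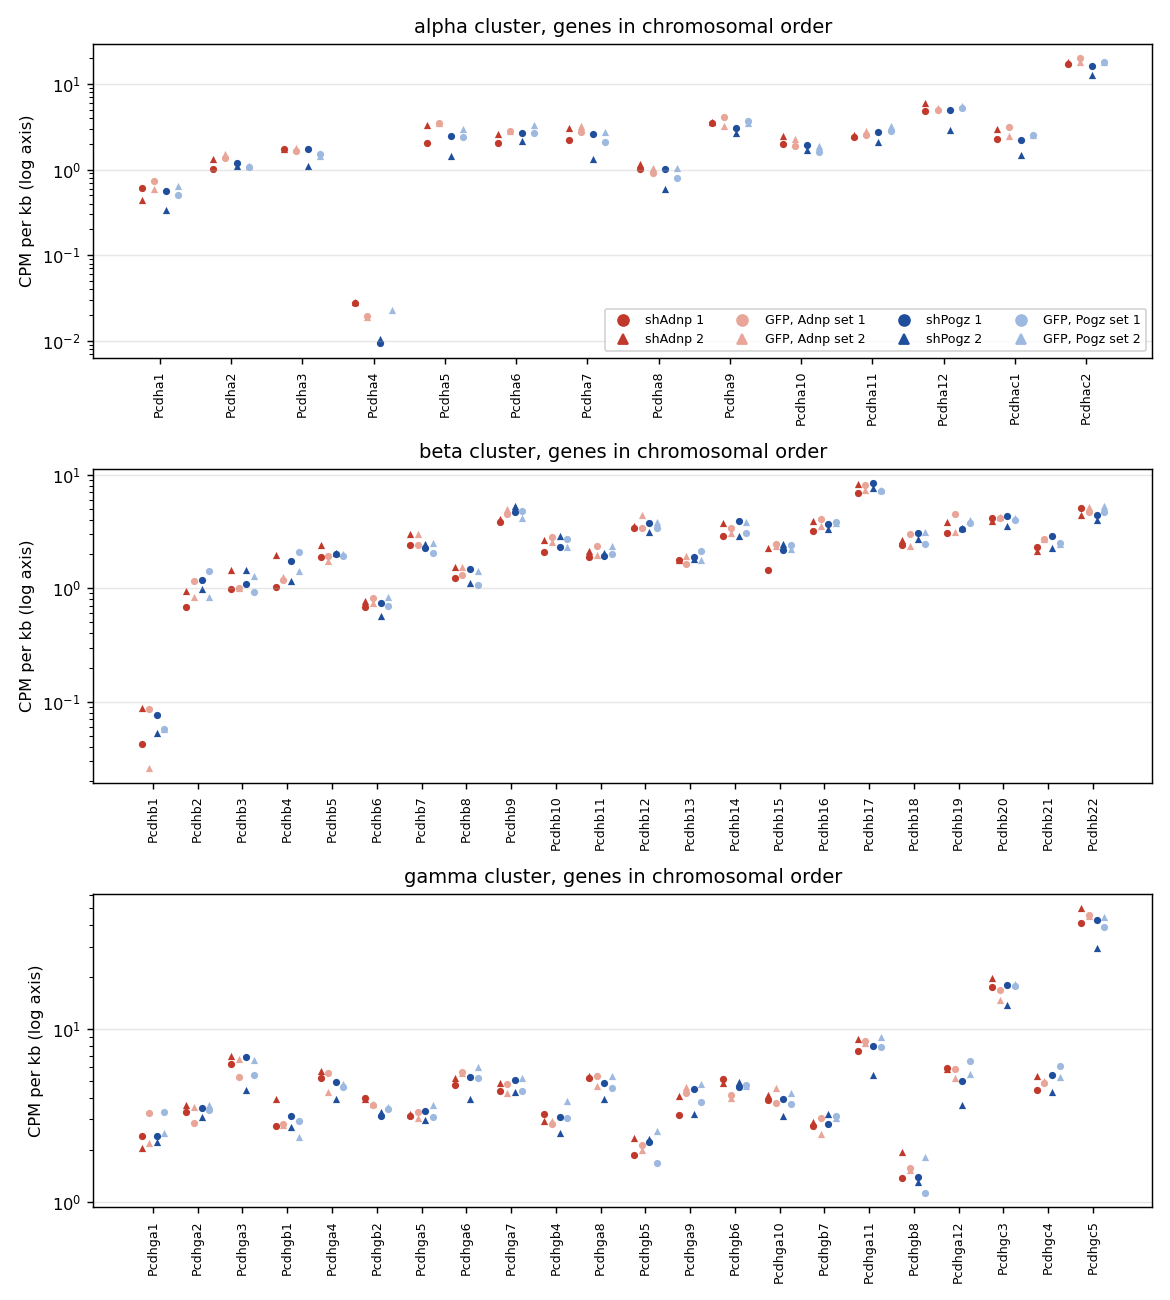
Level of each member in each library, as CPM per kb (own exon for alpha and gamma, RefSeq gene span for beta) on a log axis, with genes in chromosomal order and circles and triangles for replicates 1 and 2. Pcdhgc5 stands at 42.2, Pcdhac2 at 17.3 and Pcdhgc3 at 17.0 CPM per kb on average, and later beta genes tend to stand higher (rho 0.758 with these lengths, 0.565 with GENCODE exon lengths). The library in which Pcdha4 was listed at 0 has no point for it.

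Level also went with position along the chromosome. Counted along the direction of transcription, Spearman's rho between a gene's order and its mean level was 0.758 over the 22 beta genes (0.678 to 0.789 in single libraries), and it was 0.599 over 13 alpha genes without Pcdha4 (0.549 to 0.819). The beta value depends on the length used, and with GENCODE exon lengths, an alternative chosen after seeing the data, it was 0.565 (0.439 to 0.627). Without its C-type genes the alpha cluster had a rho of 0.591 over 11 genes. In the gamma cluster rho was 0.369 over 22 genes and 0.0860 over the 19 genes that are not C-type, so there the C-type genes at the end made most of the gradient. These correlations describe the pattern across genes of the same libraries, and genes are not independent replicates. The order of the members by level was much the same in every library, with Spearman's rho between pairs of libraries of 0.907 to 0.980 over 57 members.

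In shAdnp no clustered protocadherin differed from its GFP controls at an adjusted p of 0.05 (0 of 57 members by edgeR's quasi-likelihood test, against 0% of all 17415 genes). At an unadjusted p under 0.05 edgeR gave 1 member against 8.36% of all genes. DESeq2 called 0 members and 2.41% of all genes at its adjusted p, and limma-voom 0 members and 0% of genes. At an unadjusted p under 0.05 DESeq2 gave 0 members against 8.67% of all genes, and limma-voom 1 against 8.85%. The median log2 fold change was -0.01 over the members and -0.01 over all genes tested, with members between -0.37 and 0.30 and a median SE of 0.18. By cluster the median was -0.10 for alpha, -0.08 for beta and 0.05 for gamma, and 9 of 13 alpha, 17 of 22 beta and 8 of 22 gamma genes lay below 0. Over all members 34 of 57 (59.6%) lay below 0, against 52.3% of all genes. Members whose 2 shAdnp libraries both lay above both controls numbered 5 (8.77%, against 20.4% of all genes), and those with both below numbered 10 (17.5%, against 21% of all genes).

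The gamma B genes, a subgroup of variable exons interspersed among the gamma A exons, all had values above 0 in shAdnp, with a median log2 fold change of 0.10 over 7 genes. Pcdhgb6 stood at 13.2 and 12.5 CPM in shAdnp, against 10.6 and 10.2 CPM in its GFP controls. This was the smallest p of any member (log2 fold change 0.30, SE 0.13, unadjusted p = 0.0461, edgeR adjusted p = 0.581). The groups did not overlap for Pcdhgb6, nor for Pcdhgb2. For Pcdhgb4 they barely parted, at 8.22 and 7.470 CPM in shAdnp, against 7.18 and 7.466 CPM in its GFP controls. Of all genes, 20.4% had both shAdnp libraries above both controls. The gamma B sum was 56.2 ± 3.09 CPM in shAdnp and 50.5 ± 1.45 CPM in the GFP controls (SD, n = 2 each), again without overlap. In the GFP controls of the Pogz set the gamma B sum was 51.4 and 55.8 CPM, and the higher value lay within the span of the shAdnp libraries. Between the control pairs, with no hairpin, Pcdhgb6 had a log2 fold change of 0.21 (SE 0.13), the Pogz-set controls being higher. The 12 gamma A genes had a median log2 fold change of 0.01 in shAdnp, with 6 above and 6 below 0.

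Among the C-type genes only Pcdhgc3, which promotes dendrite branching through its partner Axin1, lay clear of its controls in shAdnp. It stood at 44.9 and 50.8 CPM in shAdnp, against 43.2 and 37.8 CPM in its GFP controls (log2 fold change 0.24, SE 0.14, edgeR adjusted p = 0.722). The GFP controls of the Pogz set held 45.3 and 46.8 CPM of Pcdhgc3, within the span of the shAdnp libraries. Pcdhgc5 stood at 107 and 132 CPM in shAdnp, against 120 and 119 CPM in its GFP controls. Pcdhgc4, needed for the survival of cortical interneurons, stood at 12.9 and 15.4 CPM in shAdnp, against 14.1 and 14.4 CPM in its GFP controls. The controls of both genes lay within the span of the shAdnp libraries. Pcdhac2 had a log2 fold change of -0.10 (SE 0.12) and Pcdhac1 of -0.08 (SE 0.24), and both overlapped with their controls.

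In the beta cluster the shAdnp values that lay lowest relative to the controls belonged to Pcdhb15, Pcdhb21, Pcdhb2 and Pcdhb9. Pcdhb9 stood at 11.8 and 12.5 CPM in shAdnp, against 13.7 and 15.3 CPM in its GFP controls (log2 fold change -0.26, SE 0.14, edgeR adjusted p = 0.697). Pcdhb21 stood at 6.26 and 5.80 CPM in shAdnp, against 7.34 and 7.43 CPM in its GFP controls (log2 fold change -0.29, SE 0.18, edgeR adjusted p = 0.728). Both were without overlap and did not pass the test. The beta genes with the highest counts overlapped with their controls, with log2 fold changes of -0.01 for Pcdhb17, -0.10 for Pcdhb16 and -0.13 for Pcdhb19. Replicate 1 of shAdnp had the lowest level of all 8 libraries for 9 of the 22 beta genes, and without it the beta median was 0.0035.

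In shPogz, too, no member passed (0 of 57 by edgeR, against 0% of all genes). At an unadjusted p under 0.05 edgeR gave 2 members, Pcdhga12 and Pcdhac2, against 6.7% of all genes. DESeq2 called 0 members and 0.574% of all genes at its adjusted p, and limma-voom 0 members and 0% of genes. Unadjusted, DESeq2 gave 2 members against 7.56% of all genes, and limma-voom 2 against 5.36%. The median log2 fold change was -0.11 over the members and -0.02 over all genes tested, and 41 of 57 members (71.9%) lay below 0, against 53.6% of all genes. By cluster, the median was -0.31 in alpha with 11 of 13 genes below 0, 0.0009 in beta with 11 of 22 below, and -0.15 in gamma with 19 of 22 below. Members with both shPogz libraries below both controls numbered 11 (19.3%, against 21.3% of all genes), and those with both above numbered 2 (3.51%, against 19% of all genes).

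**Figure D2:**
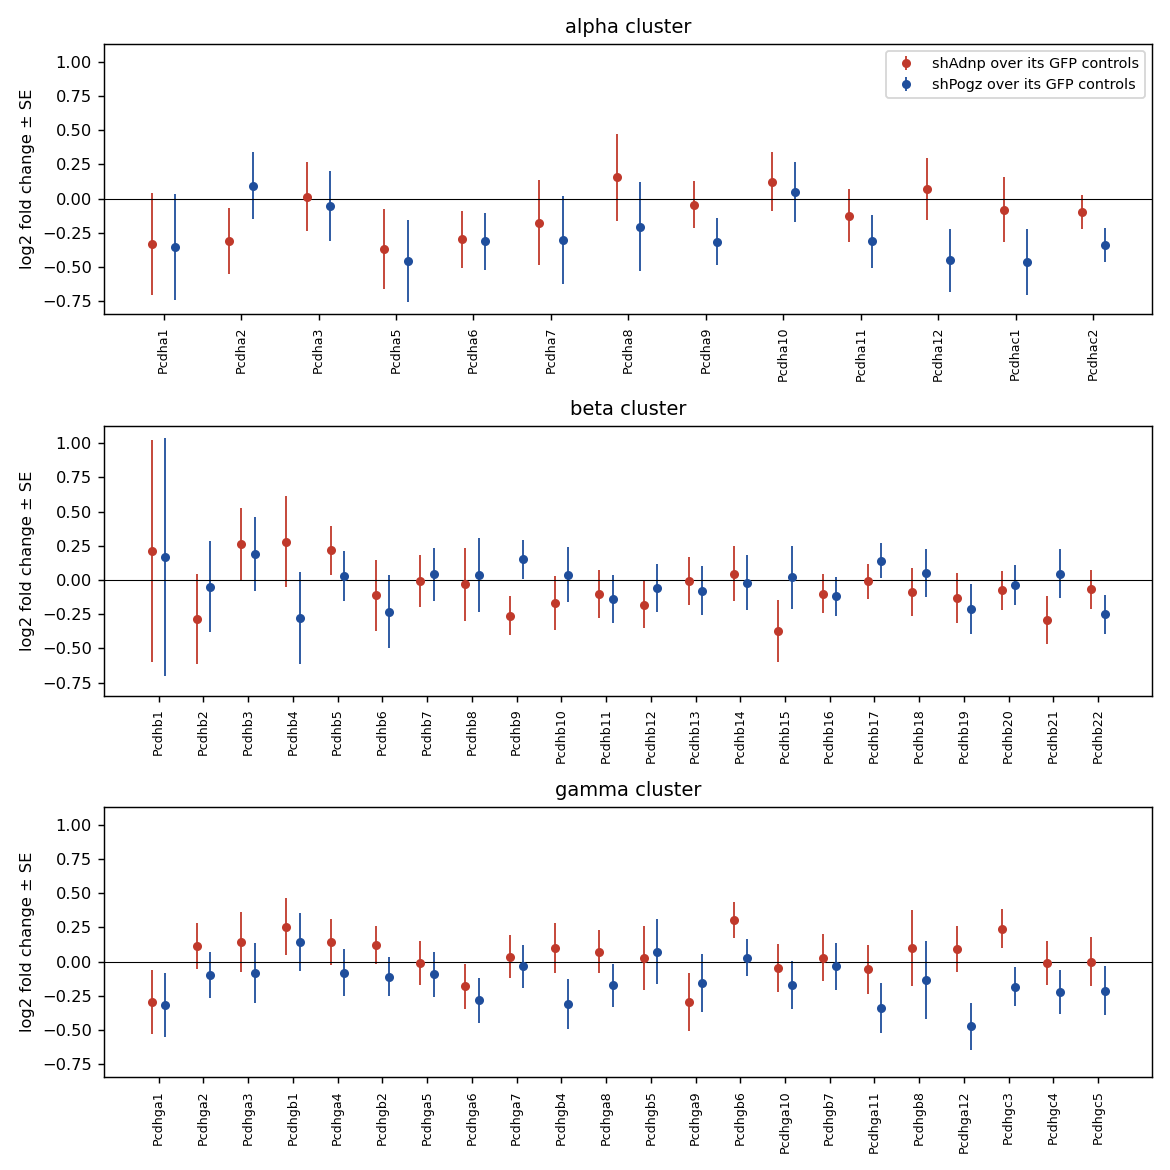
Log2 fold change of each tested member (points) with its standard error (bars) in shAdnp and in shPogz over their own GFP controls, by cluster. In shPogz 11 of 13 alpha and 19 of 22 gamma points lie below 0, against 11 of 22 beta points, and no member passed the adjusted test in either comparison.

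All 5 C-type genes had values below 0 in shPogz, with a median log2 fold change of -0.22. Pcdhac2, known from serotonergic axons, where it is needed for their even spacing, stood at 48.3 and 38.7 CPM in shPogz, against 54.9 and 55.1 CPM in its GFP controls (log2 fold change -0.34, SE 0.13, unadjusted p = 0.0237, edgeR adjusted p = 0.667). Pcdhac1 stood at 5.61 and 3.75 CPM in shPogz, against 6.51 and 6.42 CPM in its GFP controls (log2 fold change -0.46, SE 0.24, edgeR adjusted p = 0.667). Neither overlapped with its controls. Pcdhgc5 stood at 112 and 76.7 CPM in shPogz, against 102 and 117 CPM in its GFP controls (log2 fold change -0.21, SE 0.18). Its shPogz libraries lay on either side of the controls. Pcdhgc3 had a log2 fold change of -0.18 (SE 0.14) and Pcdhgc4 of -0.22 (SE 0.16), both with overlap.

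Of the other alpha genes, Pcdha12 stood at 12.1 and 7.18 CPM in shPogz, against 12.8 and 13.6 CPM in its GFP controls (log2 fold change -0.45, SE 0.23, edgeR adjusted p = 0.667). Pcdha9 stood at 7.67 and 6.63 CPM in shPogz, against 9.05 and 8.76 CPM in its GFP controls (log2 fold change -0.32, SE 0.17). Both lay below their controls without overlap. All 12 gamma A genes had values below 0 in shPogz, with a median of -0.16. Pcdhga12 stood at 14.7 and 10.7 CPM in shPogz, against 19.2 and 16.2 CPM in its GFP controls, which was the smallest p in this comparison (log2 fold change -0.47, SE 0.17, unadjusted p = 0.0207, edgeR adjusted p = 0.667). Pcdhga11 stood at 20.9 and 14.3 CPM in shPogz, against 20.7 and 23.7 CPM in its GFP controls (log2 fold change -0.34, SE 0.18), with overlap. Gamma B genes had a median of -0.03. In beta, Pcdhb17 stood at 27.6 and 24.99 CPM in shPogz, against 23.6 and 24.1 CPM in its GFP controls (log2 fold change 0.14, SE 0.13), the only beta gene with both shPogz libraries above both controls.

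Within shPogz the lower values sat mostly in replicate 2. This library had the lowest level of all 8 libraries for 27 of 57 members, among them 10 of 13 alpha and 12 of 22 gamma but 5 of 22 beta genes. Replicate 2 minus replicate 1 of shPogz had a median of -0.38 on the log2 scale over the alpha genes, -0.27 over the gamma genes and -0.13 over the beta genes. Without shPogz replicate 2 the medians of the comparison were -0.12 for alpha and -0.02 for gamma, and without replicate 1 they were -0.49 and -0.30. Without GFP replicate 2 of the Pogz set, the alpha median was -0.11 and the gamma median -0.02. The shPogz medians thus depended on that control library about as much as on shPogz replicate 2. That control library had the highest level of all 8 libraries for 14 of 57 members. With replicate 1 of shPogz left out, 10 members had an unadjusted p under 0.05, and with replicate 2 left out, 0 had.

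Summed over each cluster, alpha counts came to 101 ± 21.3 CPM in shPogz and 125 ± 5.41 CPM in its GFP controls (SD, n = 2 each), a ratio of 0.803 without overlap. Single shPogz libraries held 116 and 85.5 CPM, against 121 and 129 CPM in the GFP controls. The beta sum was 208 ± 10.3 CPM in shPogz and 212 ± 5.59 CPM in the GFP controls, and the gamma sum was 335 ± 59.9 CPM in shPogz and 380 ± 23.3 CPM in the GFP controls, both with overlap. Of the 3 sums in the Pogz set only alpha was thus separated from its controls. In shAdnp the alpha sum was 124 ± 11.9 CPM, against 132 ± 4.02 CPM in its GFP controls. The beta sum was 202 ± 21.1 CPM in shAdnp and 213 ± 7.03 CPM in its GFP controls, and the gamma sum 389 ± 35.2 CPM in shAdnp and 377 ± 8.50 CPM in its GFP controls. These differences in the Adnp set were smaller than the SD of the shAdnp replicates but larger than that of the GFP controls. The groups overlapped in each of these sums. In bulk tissue, fewer cells of a type and less RNA per cell cannot be told apart.

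**Figure D3:**
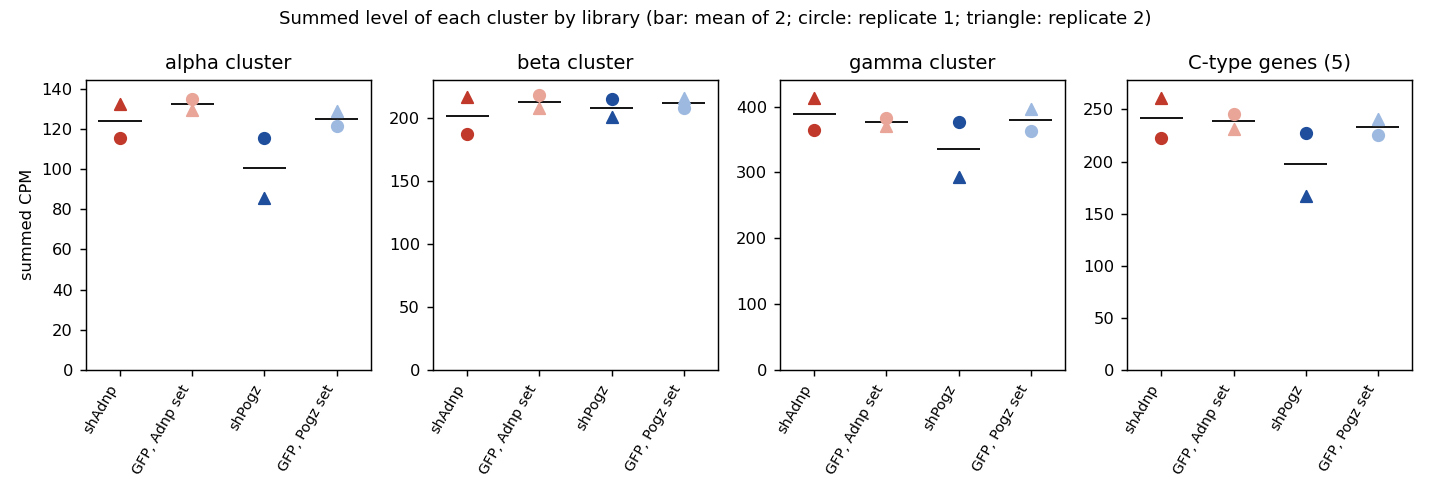
Summed CPM of the members of each cluster and of the 5 C-type genes by library, with bars at the mean of 2 libraries. The alpha sum of shPogz (101 CPM on average) lies below its GFP controls (125 CPM) in both libraries, while the beta sums of all groups overlap.

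In shPogz, neuronal and glial marker sums stood furthest from the controls in replicate 2. The summed level of 8 excitatory neuron markers was 3026 and 2069 CPM in shPogz replicates 1 and 2, against 2825 and 3286 CPM in the GFP controls. The 9 interneuron markers summed to 671 and 630 CPM in shPogz, against 787 and 705 CPM in the GFP controls, and the 9 astrocyte markers to 5472 and 4389 CPM in shPogz, against 5513 and 5797 CPM in the GFP controls. Replicate 2 was thus the lowest of the set in all 3 lists, and the interneuron sum lay below both controls in replicate 1 as well. In the same library 8 oligodendrocyte markers summed to 4615 CPM (3119 CPM in shPogz replicate 1, against 2691 and 3061 CPM in the GFP controls). The 10 microglia markers summed to 909 and 1420 CPM in shPogz, against 804 and 838 CPM in the GFP controls, and 8 striatal markers to 232 and 354 CPM in shPogz, against 214 and 202 CPM in the GFP controls. In the Adnp set the 10 microglia markers summed to 1401 and 977 CPM in shAdnp, against 479 and 614 CPM in the GFP controls, and the 7 markers of meninges to 199 and 201 CPM in shAdnp, against 96.8 and 105 CPM in the GFP controls. The 8 blood leukocyte markers summed to 91.0 and 203 CPM in shPogz, against 47.5 and 88.1 CPM in the GFP controls. They summed to 53.1 and 76.1 CPM in shAdnp, against 11.4 and 33.6 CPM in the GFP controls. The oligodendrocyte sum differed between the shAdnp libraries, at 4357 and 2105 CPM, against 2690 and 4042 CPM in the GFP controls. No gene of these lists was at 0 in all libraries. The part of these cell types in the protocadherin values was not tested.

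The split of the family among its clusters is read from counts of the same library, and so does not depend on library scaling. The alpha cluster held 16.3% (exact 95% interval 15.9% to 16.7%) and 14.8% (14.3% to 15.2%) of clustered protocadherin counts in shPogz, against 17.5% (17.0% to 18.1%) and 17.4% (17.1% to 17.7%) in its GFP controls. The beta cluster held 30.4% (29.9% to 30.9%) and 34.7% (34.0% to 35.3%) in shPogz, against 30.03% (29.4% to 30.7%) and 29.1% (28.7% to 29.5%) in the GFP controls. Most of the beta difference sat in replicate 2 of shPogz. The shAdnp libraries lay on the other side of their controls for beta, at 28.1% and 28.4% in shAdnp, against 29.6% and 29.4% in its GFP controls. They held 17.3% and 17.3% alpha counts in shAdnp, against 18.4% and 18.3% in the GFP controls, and 54.6% and 54.2% gamma counts in shAdnp, against 52.0% and 52.3% in the GFP controls. The control pairs also differed from each other in alpha share, and the shAdnp values (17.3% and 17.3%) lay near those of the Pogz-set GFP controls (17.5% and 17.4%). The intervals cover counting error only.

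**Figure D4:**
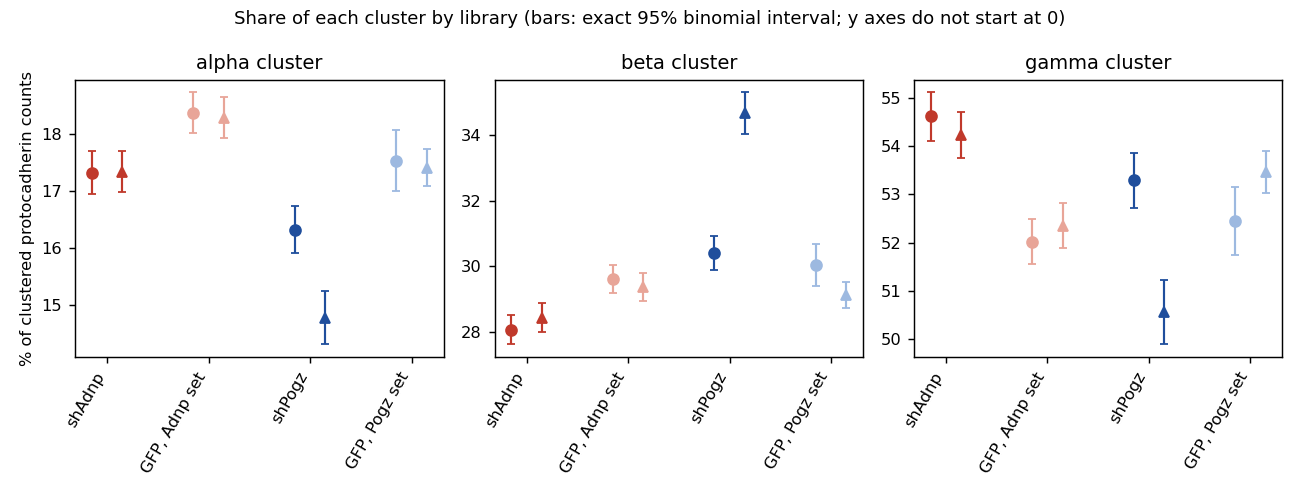
Share of each cluster in all clustered protocadherin counts by library, with exact 95% binomial intervals that cover counting error only and with axes that do not start at 0. The alpha share is lower in both knockdown groups than in their own controls, and the beta share of shPogz replicate 2 (34.7%) stands apart from all other libraries. The alpha share also differs between the control pairs, at 18.4% and 18.3% in the Adnp set and 17.5% and 17.4% in the Pogz set.

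Over the 8 libraries the share of the C-type genes ran between 46.6% and 50.6% of alpha counts and between 42.5% and 47.8% of gamma counts. The C-type genes held 50.1% and 47.4% of alpha counts in shAdnp, against 50.4% and 46.6% in its GFP controls. In shPogz they held 46.7% and 49.6%, against 50.6% and 47.7% in its GFP controls. Of gamma counts they held 45.3% and 47.8% in shAdnp, against 46.4% and 46.1% in its GFP controls, and 46.0% and 42.5% in shPogz, against 45.3% and 45.2% in its GFP controls. In none of these 4 pairs did both knockdown libraries lie on the same side of both controls.

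Set side by side, 25 of 57 members lay below 0 in both knockdowns, 7 above 0 in both, 16 above 0 in shAdnp and below 0 in shPogz, and 9 the reverse. Of the 22 gamma genes 11 lay above 0 in shAdnp and below 0 in shPogz and 0 the reverse, while of the 22 beta genes 2 lay above 0 in shAdnp and below 0 in shPogz and 8 the reverse. Across the 57 members the fold changes had a Pearson r of 0.213 and a Spearman's rho of 0.215, a description only. Taken singly, 34 members lay below 0 in shAdnp and 41 in shPogz. The joint split over all genes was not computed, so the joint counts show neither agreement nor opposition of the knockdowns. The 2 comparisons share no libraries. Pcdha11 was the single member whose libraries lay below their controls in both knockdowns (5.31% of all genes did), and no member lay above in both (7.12% of all genes did). It stood at 6.00 and 6.25 CPM in shAdnp, against 6.26 and 7.08 CPM in its GFP controls, with 6.92 and 5.24 CPM in shPogz, against 7.07 and 8.02 CPM in its GFP controls.

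**Figure D5:**
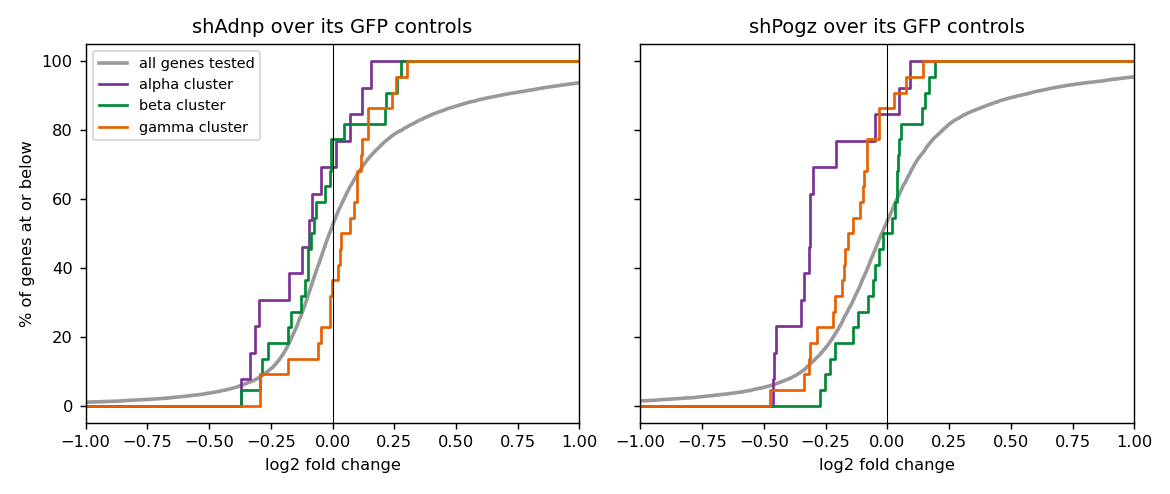
Cumulative distribution of log2 fold changes for the alpha, beta and gamma members and for all genes tested, in shAdnp and in shPogz over their own GFP controls. In shPogz the alpha curve (median -0.31) and the gamma curve (median -0.15) lie left of all genes (median -0.02), and the beta curve (median 0.0009) does not.

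The difference between the responses was tested in the same fit as the response in shPogz minus that in shAdnp. No member passed (0 of 57 by edgeR, against 0% of all genes), 1 member had an unadjusted p under 0.05 against 3.51% of all genes, and DESeq2 and limma-voom called 0 members, against 0.0115% and 0% of all genes. Unadjusted, DESeq2 gave 1 member against 3.28% of all genes, and limma-voom 1 against 3.49%. In edgeR that member was Pcdhga12, with a difference of -0.56 on the log2 scale (SE 0.24, unadjusted p = 0.0422, edgeR adjusted p = 0.978). Pcdhgc3 had a difference of -0.42 (SE 0.20, edgeR adjusted p = 0.978). The median difference was -0.21 over the gamma genes, of which 20 of 22 lay below 0, -0.13 over the alpha genes and 0.01 over the beta genes, against -0.02 over all genes. In all, 43 of 57 members (75.4%) lay below 0, against 53.1% of all genes. Without shPogz replicate 2 the gamma median was -0.04.

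Averaged over both knockdowns with the set as a term, again no member passed (0 of 57 by edgeR, against 0% of all genes). At an unadjusted p under 0.05 edgeR gave 1 member against 12.5% of all genes, limma-voom 3 against 12.4%, and DESeq2 1 against 12.9%. At its adjusted p DESeq2 called 0 members and 4.08% of all genes, and limma-voom 0 members and 0% of genes. The alpha cluster had a median of -0.22 with 12 of 13 genes below 0, the beta cluster of -0.06 and the gamma cluster of -0.03, and over all members 39 of 57 (68.4%) lay below 0, against 55.3% of all genes. The smallest p belonged to Pcdhac2 (log2 fold change -0.22, SE 0.09, unadjusted p = 0.0402, edgeR adjusted p = 0.375). Pcdha6 stood at 5.09 and 6.52 CPM in shAdnp, against 7.15 and 7.13 CPM in its GFP controls, with 6.74 and 5.37 CPM in shPogz, against 6.61 and 8.39 CPM in its GFP controls (average -0.31, SE 0.14, edgeR adjusted p = 0.409). Pcdha5 (average -0.41, SE 0.20, edgeR adjusted p = 0.432) and Pcdhga6 (average -0.23, SE 0.11, edgeR adjusted p = 0.441) had the next smallest p-values.

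The GFP controls of the Pogz set were also compared with those of the Adnp set, where no hairpin was involved. This comparison holds any difference between the sets, while each knockdown was compared within its set. It is therefore no measure of the spread within a set. No member passed (0 of 57 by edgeR, against 0.00574% of all genes), and 0 members had an unadjusted p under 0.05, against 7.35% of all genes. DESeq2 called 0 members against 0.419% of all genes, and limma-voom 0 members against 0.00574%. Unadjusted, DESeq2 gave 0 members against 7.61% of all genes, and limma-voom 0 against 7.33%. The alpha median between these control pairs was -0.15, the beta median 0.01 and the gamma median 0.03, with 28 of 57 members below 0, against 48.2% of all genes. Leaving out 1 library, the alpha median between control pairs ran between -0.21 and -0.0122, and that of shAdnp against its own controls between -0.17 and -0.0099.

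Other genes of the pathway were read in the same fits, and none passed the adjusted test in shAdnp or in shPogz. Non-clustered protocadherins, single genes elsewhere in the genome, had a median log2 fold change of -0.03 over 12 genes in shAdnp and of -0.24 in shPogz, where 10 of 12 lay below 0. Pcdh17 stood at 163 and 148 CPM in shAdnp, against 198 and 194 CPM in its GFP controls (log2 fold change -0.33, SE 0.10, edgeR adjusted p = 0.352). Pcdh11x stood at 55.1 and 49.6 CPM in shPogz, against 64.4 and 62.7 CPM in its GFP controls (log2 fold change -0.28, SE 0.11, edgeR adjusted p = 0.667). Both lay below their controls without overlap, as did Pcdh20 at 31.1 and 24.3 CPM in shPogz, against 35.3 and 35.6 CPM in its GFP controls. At low levels, Pcdh12 lay above its controls in shAdnp, at 1.15 and 2.27 CPM, against 0.719 and 0.955 CPM in its GFP controls. In shPogz it lay below them, at 1.03 and 0.786 CPM, against 1.49 and 1.51 CPM in its GFP controls. Neither comparison of Pcdh12 had overlap.

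The regulators of promoter choice and silencing (CTCF, cohesin subunits and loaders, DNA methylation enzymes, SETDB1 and HP1 genes, with 22 of 23 tested) had medians of -0.04 in shAdnp and 0.05 in shPogz. In shAdnp 1 of 22 was higher and 0 lower at an unadjusted p under 0.05, and in shPogz 0 were. The one in shAdnp was Dnmt3a, a DNA methyltransferase, at 146 and 148 CPM in shAdnp, against 119 and 130 CPM in its GFP controls (log2 fold change 0.24, SE 0.10, edgeR adjusted p = 0.581). The 23 partners of the protocadherin cytoplasmic and membrane complexes had medians of -0.09 in shAdnp and -0.08 in shPogz. Cyfip1, a subunit of the WAVE actin regulator, stood at 149 and 140 CPM in shAdnp, against 110 and 121 CPM in its GFP controls (log2 fold change 0.33, SE 0.10, edgeR adjusted p = 0.390). Wasf3, a WAVE protein itself, stood at 44.4 and 40.1 CPM in shPogz, against 55.7 and 48.8 CPM in its GFP controls (log2 fold change -0.31, SE 0.11, edgeR adjusted p = 0.667). Both were without overlap. Genes next to the clusters on the chromosome (15 of 16 tested) had medians of 0.01 in shAdnp and -0.08 in shPogz. The neighbour that stood furthest from its controls was Cd14, a receptor of myeloid cells, at 7.61 and 4.39 CPM in shAdnp, against 1.64 and 2.36 CPM in its GFP controls (log2 fold change 1.59, SE 0.34, edgeR adjusted p = 0.295).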

How the data were processed

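Each library had 1 deposited file of raw counts, with a gene symbol for each value. Per the labels' protocols, stranded libraries were made from 1 µg of DNase-treated total RNA after ribosomal depletion and sequenced on a HiSeq 2500. The submitters' processing notes name STAR, featureCounts, DESeq2 and mm10, while the labels' protocols name Cutadapt and TopHat2. Not given in the sources used here are versions, the strand setting and the handling of reads that match several genes. Groups follow the titles. The second shPogz library carries another replicate number in its column name, and the design text speaks of 3 knockdown and 2 control mice. Left out of library sizes and tests were 25 identifiers turned into dates (0.306% to 0.337% of counts) and 2 blank ones.

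Counts were fitted in R 4.3.3 with edgeR 4.0.16 (filterByExpr with a minimum count of 10, TMM scaling, robust quasi-likelihood, 1 mean per group over 8 libraries). The fit had 4 residual degrees of freedom and a biological coefficient of variation of 0.171. The Benjamini-Hochberg adjustment ran over the 17415 genes tested, with a threshold of 0.05. Groups hold 2 libraries, so the spread behind each p-value is pooled over genes and groups. For the average effect the model held a set term and a knockdown term. CPM refers to TMM-scaled libraries. Sums, shares and medians over members were described without a test. The fits were tested on simulated data. Gene spans come from RefSeq (GRCm38.p6) and exons from GENCODE on the same assembly, matched by RefSeq accession except for Pcdhgb8, which was matched by symbol.

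The members, gene lists and alternatives were chosen with earlier results of these data known. Genes named are, for the shAdnp, shPogz and average comparisons, the 4 members of smallest p, the 3 members with the highest CPM per cluster, the C-type genes, the member under the filter, and up to 2 genes of each other list. Pcdha7, Pcdha11, Pcdhb2, Pcdhb15, Pcdhgb2, Pcdhgb4, Pcdhgb8, the non-clustered Pcdh12 and members at the ends of the ranking by length-scaled level were named after their values were seen. Alternatives were DESeq2 1.42.0, limma-voom (limma 3.58.1), scaling by RLE or by the upper quartile, other filters (none, or at least 1 CPM in 2 libraries), a fit to the 4 libraries of a comparison alone, a replicate block, and leaving out each library.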

Additional observations from a re-analysis of the deposited data

Results flagged for a closer look

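The beta cluster's share of clustered protocadherin counts moved in opposite directions in the 2 sets. In shAdnp it was 28.1% and 28.4%, below the 29.6% and 29.4% of its GFP controls, and in shPogz it was 30.4% and 34.7%, above the 30.03% and 29.1% of its GFP controls. The difference in shPogz less that in shAdnp was 4.19 percentage points, and 2.05 percentage points without shPogz replicate 2. The summed beta level itself was 208 CPM in shPogz, against 212 CPM in its GFP controls, with overlap, while the alpha sum was 101 CPM in shPogz, against 125 CPM in its GFP controls. Both shAdnp libraries lay below their controls and both shPogz libraries above theirs. The share was flagged by this rule, so the separation is no further evidence. The margin was small for replicate 1 of shPogz, whose exact interval was 29.9% to 30.9%. It overlapped with the interval of GFP replicate 1 of the Pogz set (29.4% to 30.7%). The difference between the responses in beta share was not tested.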

How the results depend on the processing

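The count of members called was 0 in each of the 5 comparisons under every alternative that covered them. The fit to the 4 libraries of a comparison alone covered only shAdnp and shPogz against their own controls. With the replicate number as a block within each set, members called stayed at 0 and all genes called came to 175 in shAdnp, 31 in shPogz, 0 for the difference, 405 for the average and 11 between the control pairs, against 0, 0, 0, 0 and 1 without it. The numbers share no animal, and deviations of same-numbered libraries correlated at -0.121 in the Adnp set and 0.120 in the Pogz set over all genes. With 1 such value per set, it cannot be told whether same-numbered libraries were handled together. The main fit held no replicate block.

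Leaving out 1 library at a time, the shPogz median ran between -0.49 and -0.11 for alpha and between -0.30 and -0.0179 for gamma. The shAdnp median ran between -0.14 and 0.0586 over all members, between -0.17 and -0.0099 for alpha, between -0.19 and 0.0035 for beta and between -0.0154 and 0.12 for gamma. The median of the average effect ran between -0.0697 and 0.0068 for beta and between -0.0658 and 0.0260 for gamma. The median of the difference ran between -0.22 and 0.0127 over all members, -0.40 and 0.0063 for alpha, -0.0788 and 0.20 for beta and -0.27 and -0.0425 for gamma. Between control pairs the median ran between -0.11 and 0.0447 over all members and between -0.21 and -0.0122 for alpha. The log2 ratios of sums in shPogz ran between -0.55 and -0.11 for alpha, -0.37 and -0.0075 for gamma and -0.48 and -0.0348 for the C-type genes, and in shAdnp between -0.19 and 0.0271 for beta and between -0.0496 and 0.14 for gamma. Shares in shPogz less its controls ran between -2.70 and -1.14 percentage points for alpha, 0.816 and 5.10 for beta, -2.40 and 0.329 for gamma, and -2.76 and 0.765 for the C-type share of gamma.

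Small fold changes in shAdnp turned sign. Leaving out 1 library, they ran between -0.29 and 0.12 for Pcdhac1, -0.17 and 0.0012 for Pcdhac2, -0.15 and 0.15 for Pcdhgc5, -0.20 and 0.14 for Pcdha9, -0.14 and 0.13 for Pcdhb17, -0.25 and 0.0586 for Pcdhb16, -0.37 and 0.17 for Pcdhb19, -0.14 and 0.13 for Pcdhgc4, -0.17 and 0.0712 for Pcdhga11 and -0.0902 and 0.24 for Pcdha12. In shPogz, Pcdhgc5 ran between -0.47 and 0.0341. Other genes named in shPogz kept their sign there but moved in size, between -0.35 and -0.0038 for Pcdhgc3, -0.36 and -0.0613 for Pcdhgc4, -0.84 and -0.12 for Pcdha12, -0.75 and -0.20 for Pcdhac1, -0.47 and -0.19 for Pcdhac2, -0.60 and -0.0935 for Pcdhga11, -0.68 and -0.27 for Pcdhga12 and -0.39 and -0.21 for Pcdha9. Pcdhgc5 in shAdnp was 0.00336 with DESeq2 and 0.00335 with RLE scaling. With upper quartile scaling Pcdhgc5 was 0.0170, Pcdhgc4 0.00799 and Pcdhb17 0.00818, and with the 4 libraries of the comparison alone Pcdhgc5 was 0.0205, Pcdhgc4 0.0116 and Pcdhb17 0.0119. The causes of these changes were not tested. With 2 libraries a group and a median SE of 0.18, small shifts of single genes were not detectable.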
